A study of Danio rerio with 8 samples.

Results

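Zebrafish larvae exposed to zinc in either of 2 forms were compared, as 1 pool, with larvae that received none. Zinc oxide nanoparticles (ZnO NPs) were given at 2.64 mg/L and dissolved zinc sulfate (ZnSO4) at 7.75 mg/L, both as mass of compound. Each dose was the LC25 of its compound, and exposure lasted until 96 h post-fertilization. Control larvae of the same age were kept in culture water without added zinc. The comparison took 6 zinc arrays (3 of ZnO NPs and 3 of ZnSO4) and 2 control arrays, which are all 8 arrays of the series, and it asks which transcripts the zinc forms moved together. Each array was hybridised with Cy3-labeled RNA from whole larvae pooled from a dish, and the labels give no strain. RNA of a whole larva does not separate fewer cells of a type from less RNA per cell, and these cannot be told apart in any value below.

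Zinc is a catalytic and structural part of many enzymes and transcription factors, and cells hold the free ion at a very low level. Metallothioneins bind it in the cytosol, SLC30 proteins carry it out of the cytosol into vesicles or out of the cell, and SLC39 proteins carry it in. In fish larvae zinc enters from the water through ionocytes of the skin and gill, the same cells that take up sodium, calcium and chloride and secrete acid and ammonia.

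Values are scaled signals, that is, the processed spot signal of each probe after every array was brought to the same 75th percentile. They are in arbitrary units and are compared only within a probe. A probe was tested if it was well above background on all arrays of at least 1 of the 3 groups, which held for 34621 of 43603 probes, and the contrast could be fitted for 34620 of these. A probe is described as separated when all 6 zinc arrays lay on the same side of both control arrays and the groups differed by 1.5-fold or more, and its gap is the log2 distance between the nearest zinc and control arrays. The ranking by gap used these same values, so separation is a description. The gene lists below were chosen with earlier results of these data known. A list's share of separated probes beside that of all probes is therefore also a description, and several probes can be of 1 gene. The test was limma with 3 groups in 1 model and the mean of both zinc groups set against control, and a call required a difference of 1.5-fold or more together with a p below 0.05 after Benjamini-Hochberg adjustment across the tested probes.

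In the pooled comparison 18 probes rose (0.052% of those tested) and 14 fell (0.0404%). Probes with a gene name made up 27 of these 32 calls, for 12 genes that rose and 9 that fell. The separated probes numbered 410 upward (1.18%), of 187 named genes, and 241 downward (0.696%), of 128 named genes, and all 32 called probes were among them. Of the 32, 28 were well above background on all 8 arrays, and the other 4 passed that filter only through the group where they were brighter. The 32775 probes well above background on all 8 arrays held 307 separated upward and 181 downward. At an unadjusted p the same fold was passed by 511 probes upward (1.48%) and 307 downward (0.887%). Without the fold threshold 4708 probes (13.6%) lay higher on all 6 zinc arrays and 4524 (13.1%) lower. The split of the separated probes depended on the scaling: 63% were upward after the percentile shift, 41.4% after a median shift and 37.7% after quantile normalization. The upward share of called probes was 56.2%, 25.9% and 41.9% under these 3 scalings.

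The control arrays differed from each other by 0.36 (root mean square log2 difference), more than arrays within a zinc group did (0.24 to 0.30). Control 1 lay 0.39 to 0.43 from the zinc arrays and control 2 lay 0.27 to 0.34 from them. A fit without 1 control takes its residual spread from the zinc arrays only. A call that held in such a fit, here or below, therefore carries no spread between controls. Against control 1 alone the pooled zinc arrays gave 1099 probes up and 433 down, and against control 2 alone 22 up and 52 down. Leaving out any 1 zinc array left 2 to 5 probes up and 1 to 3 down. Of the 32 called probes, 3 were called in all 8 fits that each left out 1 array: slc30a8 (A_15_P402260), zgc:110286 (A_15_P548212) and the unnamed probe A_15_P116560, which was not well above background on any zinc array. The other 29 were called in 3 or fewer of these fits. The middle number of each array's barcode was read as the side of the slide, which the labels do not name. By this reading both controls were on side 1 with ZnO NP 1 and ZnO NP 2. ZnO NP 3 and all ZnSO4 arrays were on side 2. Within side 1 limma called 0 probes on 2 residual degrees of freedom (838 up and 315 down at an unadjusted p below 0.05 and the fold threshold). With the side as a block it called 0 up and 2 down (657 and 377 unadjusted).

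Among named genes the lowest adjusted p was that of slc30a8, a zinc transporter known in mammals for loading insulin granules of pancreatic beta cells. Its probe A_15_P402260 read 149 and 161 on the control arrays, 508, 689 and 599 with ZnO NPs and 569, 549 and 542 with ZnSO4. No zinc array came within a log2 gap of 1.66 of the controls, the widest gap of any named probe that was well above background on all 8 arrays. The change was 1.89 ± 0.11 (log2, SE) with an adjusted p of 0.00531 (limma), and it was called in all 8 fits without 1 array (adjusted p 0.00318 to 0.0374). Within side 1 the change was 1.93. The other slc30a8 probe, A_15_P682331, read 437 and 527 in controls, 1228, 1762 and 1959 with ZnO NPs and 1581, 1610.3 and 1739 with ZnSO4. It rose by 1.76 ± 0.17 (adjusted p = 0.0236). That call held without control 2 or without ZnO NP 1 and was lost without any other array (adjusted p up to 0.0965).

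Metallothionein mt2, the classical zinc-induced gene, lay higher on all 6 zinc arrays for all 3 of its probes, but none was called. Probe A_15_P105247 read 20098 and 16093 on the control arrays, 25555, 32948 and 45009.5 with ZnO NPs and 36804, 34804 and 37946 with ZnSO4. ZnO NP 1 was the lowest zinc array and ZnO NP 3 the highest for each mt2 probe. The 3 probes differed by 0.87 to 0.96, with adjusted p from 0.085 to 0.126 (limma). With the side as a block A_15_P105247 differed by 0.54 (adjusted p = 0.345). Of 31 tested probes for 15 zinc-binding and zinc-transport genes, 2 were called up (both slc30a8) and 0 down. The 5 separated up (16.1%, against 1.18% of all probes) were those of slc30a8 and mt2, and 0 were separated down. The median change was 0.02 beside 0.03 over all tested probes. The zinc-sensing transcription factor gene mtf1 had 3 probes at 0.28 to 0.33 (adjusted p 0.12 to 0.142).

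A pair of neighbouring genes rose together. The genes arf4b, for a small GTPase of the Arf family that acts in Golgi trafficking, and zgc:110286 lie close to each other on 1 chromosome of the current RefSeq annotation, with 1 gene between them that has no probe on the array. For arf4b (A_15_P164381) the controls read 187 and 219, the ZnO NP arrays 692, 685 and 899.6, and the ZnSO4 arrays 609, 634 and 796. It rose by 1.82 ± 0.15 (adjusted p = 0.0162). All 3 probes of zgc:110286 were called, at 1.68 to 2.18. Its probe A_15_P548212 read 192 and 181 in controls, 549, 639 and 718 with ZnO NPs and 562, 538 and 600.0 with ZnSO4, a rise of 1.68 ± 0.10 (adjusted p = 0.00548). The paralog arf4a, beyond zgc:110286, differed by 0.12 (adjusted p = 0.413), and the 5 probes of slmapa and 3 of pde12, the next measured genes outward, differed by -0.05 to 0.27 and by -0.13 to -0.06. Leaving out 1 array at a time kept A_15_P548212 called each time (adjusted p 0.00347 to 0.0346). The arf4b call held without control 2, ZnO NP 3 or ZnSO4 3 and not without each of the others (adjusted p up to 0.0704).

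The largest rise in fold among called probes was that of ocstamp, which in mice is needed for the fusion of osteoclast precursors. It was not well above background on either control array (5.24 and 3.11) and was on 5 of 6 zinc arrays, which read 54.6, 25.6 and 51.8 with ZnO NPs and 37.8, 42.9 and 36.9 with ZnSO4. The rise was at least 5.10-fold, with each control array set to the higher of its lowest signal that counted as well above background and the probe's own (adjusted p = 0.0236, a value that rests on control signals not well above background). The call was lost under normexp background correction (0.70, adjusted p = 0.136). That setting adds an offset of 50 to every signal, which compresses log2 changes of dim probes. The ocstamp call was also lost without ZnO NP 1, ZnO NP 3 or any ZnSO4 array (adjusted p up to 0.0965).

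The other genes that rose did so by 0.59 to 1.28. They included pkhd1l1.2, for a very large membrane protein that in mice coats the stereocilia of hair cells, which read 180.1 and 171 in controls, 342, 353 and 439 with ZnO NPs and 428, 474 and 558 with ZnSO4 (A_15_P748106, 1.28 ± 0.13, adjusted p = 0.0272). Its tandem copy pkhd1l1.1 differed by 1.01 (adjusted p = 0.0615) and the pair may share signal. The gene lpin1a, for a phosphatidate phosphatase of lipid synthesis, was separated on all 3 probes at 0.61 to 1.04 and called on 1 (A_15_P106261, 0.61 ± 0.07, adjusted p = 0.0475). The myosin light chain kinase gene mylk4a (A_15_P113522) read 64.1 and 70.06 in controls, 154, 142 and 151 with ZnO NPs and 113, 115 and 131 with ZnSO4, and rose by 0.99 ± 0.08 (adjusted p = 0.0162). The remaining named calls were mettl21cb (1.04), LOC571499 (1.00), zgc:113442 (0.71), dpy19l1l (0.62) and nek2 (0.59), a kinase of the centrosome cycle. The other 2 nek2 probes, at -0.01 and 0.11, were not separated. The mylk4a call held without control 2 or ZnSO4 3, the zgc:113442 call without either control, and those of pkhd1l1.2, mettl21cb, LOC571499, dpy19l1l and nek2 only without control 2. The lpin1a call was lost without each of the 8 arrays in turn, by its fold or its adjusted p. Over these 8 genes the adjusted p reached at most 0.155.

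**Figure D1:**
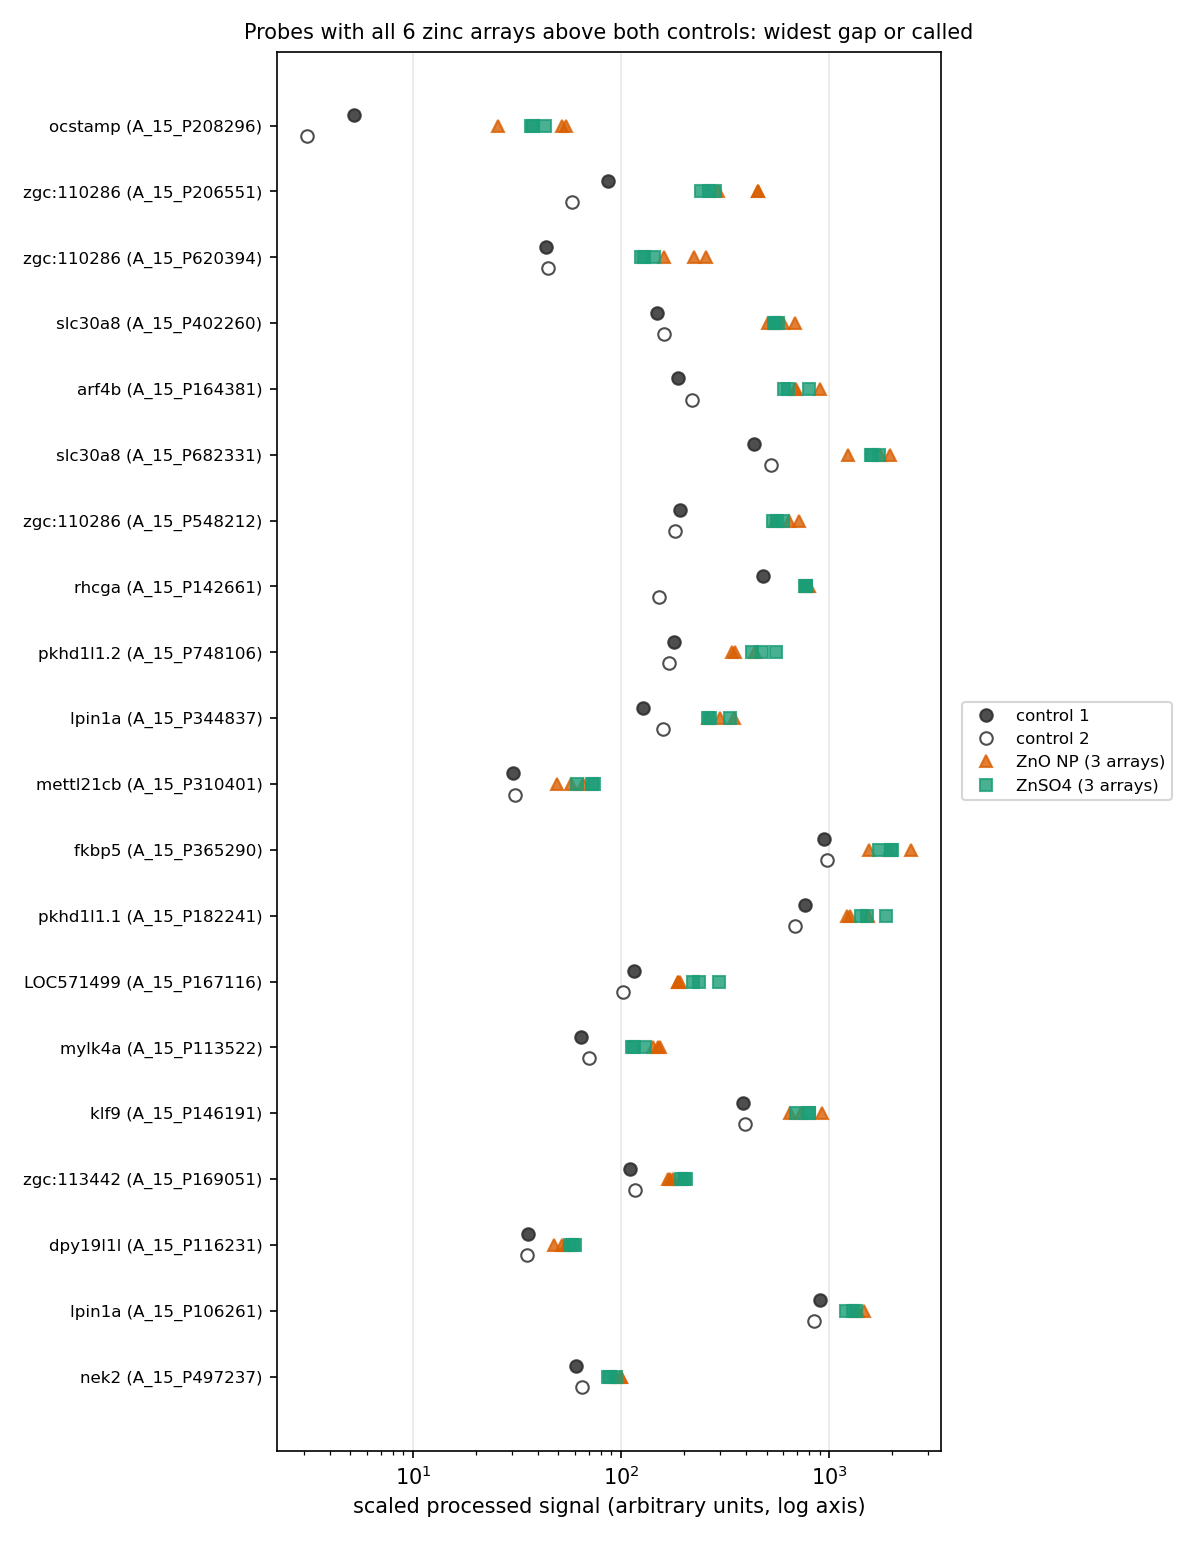
Scaled processed signal (arbitrary units, log axis) on each of the 8 arrays for the named probes that rose or had the widest upward gaps, ordered by fold change. Filled and open circles are control 1 and control 2, triangles ZnO NPs and squares ZnSO4. For slc30a8 (A_15_P402260) the controls sit at 149 and 161 and the zinc arrays from 508 to 689, whereas for rhcga the controls themselves sit at 483 and 152.

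Immediate early genes, whose transcription follows neuronal activity or other stimuli within minutes, held more probes separated downward than any other of the 21 gene lists. The transcription factor gene egr4 (A_15_P395775) read 3236 and 5164 on the control arrays, 1265, 1139 and 1172 with ZnO NPs and 965, 944 and 891 with ZnSO4. It fell by 1.96 ± 0.16 on the log2 scale (adjusted p = 0.0162). The nuclear protein gene ier2b (A_15_P570942) read 6703 and 9377 in controls, 3157, 3158 and 3053 with ZnO NPs and 2603, 2305 and 2513 with ZnSO4, and fell by 1.51 ± 0.12 (adjusted p = 0.0162). The change against control 1 alone was -1.62 for egr4 and -1.27 for ier2b, beside -2.29 and -1.76 against control 2 alone. Both calls were lost without any 1 zinc array (adjusted p up to 0.0704). For both genes control 2 was the higher control and all 3 ZnSO4 arrays lay below all 3 ZnO NP arrays.

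The activity-dependent factor npas4a (A_15_P148271) read 1743 and 4957 in controls and 512 to 752 on the zinc arrays, a change of -2.26 ± 0.33 (adjusted p = 0.0615). The AP-1 subunit gene fosab lay lower on all zinc arrays for all 5 probes (-2.02 to -1.92, adjusted p 0.0615 to 0.0787), and fosb read 189 and 622 in controls against 50.8 to 81.7 (-2.34 ± 0.38, adjusted p = 0.0705). For these 3 genes the controls differed from each other by more than 2-fold, and the change against control 1 alone was -1.50 for npas4a and -1.48 for fosb, beside -3.01 and -3.20 against control 2 alone. Over the list of 26 tested genes, 15 of 45 probes (33.3%, against 0.696% of all probes), of 8 genes, were separated downward and 1 upward (nr4a3). Of the 45, 2 were called down and 0 up, and the median was -0.35. The list median was -0.17 against control 1 alone (45 tested probes) and -0.53 against control 2 alone (50 tested probes). The tested probes differ because the filter on dim probes then used only the control that was left. The jun, junba and egr1 probes differed by -0.57 to -0.32 and were not separated at the fold threshold.

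Potassium channel genes of the kcnj1a cluster, whose products are inward rectifiers found in zebrafish ionocytes, fell. For kcnj1a.2 the probe A_15_P149666 read 2433 and 2351 in controls, 872, 1138 and 811 with ZnO NPs and 1079, 1089 and 1054 with ZnSO4, a fall of 1.26 ± 0.12 (adjusted p = 0.0236), and A_15_P641866 fell by 1.18 ± 0.10 (adjusted p = 0.0162). For kcnj1a.1 the probe A_15_P399905 read 552 and 547 in controls, 333, 306 and 302 with ZnO NPs and 372, 341 and 376 with ZnSO4, and fell by 0.70 ± 0.07 (adjusted p = 0.0244). The other kcnj1a.1 probe was separated at -1.26 but not called (adjusted p = 0.102). The control arrays were nearly equal in each of the 3 called probes, and their change within side 1 was -1.26, -1.25 and -0.78. The copies are close in sequence, and signal shared between them is possible. Each of the 3 calls was lost without control 1 and without 4 or more of the zinc arrays.

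The carbonic anhydrase gene ca15a, of the acid-secreting ionocytes, read 1509.8 and 1550.3 in controls and 679 to 892 on the zinc arrays (-1.01 ± 0.13, adjusted p = 0.055). The ammonia channel gene rhcga lay higher on all zinc arrays for its 3 probes (1.38 to 1.75, adjusted p 0.0946 to 0.108). For A_15_P142661 the 6 zinc arrays spanned 762 to 797, while control 1 read 483 and control 2 read 152, so the difference was 0.69 against control 1 alone and 2.36 against control 2 alone. Of 54 tested probes for 28 ionocyte transport genes, 3 were called down and 0 up, and the median was 0.05. In each direction 6 were separated (11.1%, against 1.18% of all probes up and 0.696% down). The summed signal of the ionocyte markers foxi3a, foxi3b and ca15a was 2972 and 3548 on the control arrays and 2079 to 2447 on the zinc arrays. Without ca15a the sum was 1462 and 1998 on the control arrays and 1349 to 1555 on the zinc arrays, 4 of which lay below both controls. The part of these markers in the fall of the channel genes was not tested.

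In the phototransduction list 3 probes were called down. The gene pde6ha, for the inhibitory subunit of the cone phosphodiesterase, was separated on all 3 probes. A_15_P621401 read 171098 and 129796 in controls, 78793, 74976 and 77186 with ZnO NPs and 76904, 75588 and 75520.5 with ZnSO4, and fell by 0.96 ± 0.10 (adjusted p = 0.0315), and A_15_P186131 fell by 1.03 (adjusted p = 0.0493). The changes of these 2 probes were -1.16 and -1.29 against control 1 alone, beside -0.76 and -0.78 against control 2 alone. Both calls were lost without any 1 zinc array (adjusted p up to 0.155). The gene guca1d, of a family whose products switch guanylate cyclase in photoreceptors according to calcium, read 37.5 and 41.7 in controls and 5.18 to 14.0 on the zinc arrays, only 1 of which was well above background. Its fitted change was -2.05 ± 0.19 (adjusted p = 0.0222), which rests on zinc signals mostly not well above background, and under normexp background correction it was -0.41 (adjusted p = 0.3). The call held without control 2 or ZnSO4 1 and was lost without each other array (adjusted p up to 0.0811). Its relatives guca1g and guca1c lay at -1.04 to -1.01 (adjusted p = 0.0615), while guca1aa and 1 of 2 guca1ab.1 probes lay at 1.41 and 1.89 (adjusted p 0.0615 and 0.112). Of 67 tested probes for 33 genes, 8 were separated down (11.9%, against 0.696% of all probes) and 2 up (2.99%, against 1.18%), and the median was -0.08. Photoreceptor markers (gnat2, pde6c, opn1sw1 and rho) summed to 189020.5 and 192964 in controls and 173770.3 to 192705 with zinc.

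The other named genes that fell were pklr, for the pyruvate kinase of liver and red blood cells (14897 and 18262 in controls against 8735 to 10212, -0.76 ± 0.09, adjusted p = 0.0499), ascl1b, a proneural transcription factor (-0.61, adjusted p = 0.0499), and zgc:158343 on both probes (-0.64 and -0.63, adjusted p 0.0236 and 0.0315). All 6 pklr probes were separated downward, at -0.82 to -0.69. The change of the called pklr probe was -0.61 against control 1 alone and -0.91 against control 2 alone. The calls of pklr, ascl1b and zgc:158343 were all lost without any 1 zinc array (adjusted p up to 0.162). Among the 5 called probes with no gene name, A_15_P116560 read 43.8 and 51.3 on the control arrays and 5.0 to 6.36 on the zinc arrays, none of which was well above background. It was at least 5.09-fold lower with zinc (adjusted p = 9.72e-05, which rests on those dim zinc signals), and under normexp it differed by -0.60 (adjusted p = 0.13). A_15_P761911 was also not well above background on any zinc array (2.66 to 9.22, against 42.5 and 62.6 in controls). It was at least 5.67-fold lower (adjusted p = 0.0329, which rests on those dim zinc signals), a call that held only without control 2. Under normexp it differed by -0.71 (adjusted p = 0.143). The other 3 unnamed probes rose by 0.71 to 0.74.

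**Figure D2:**
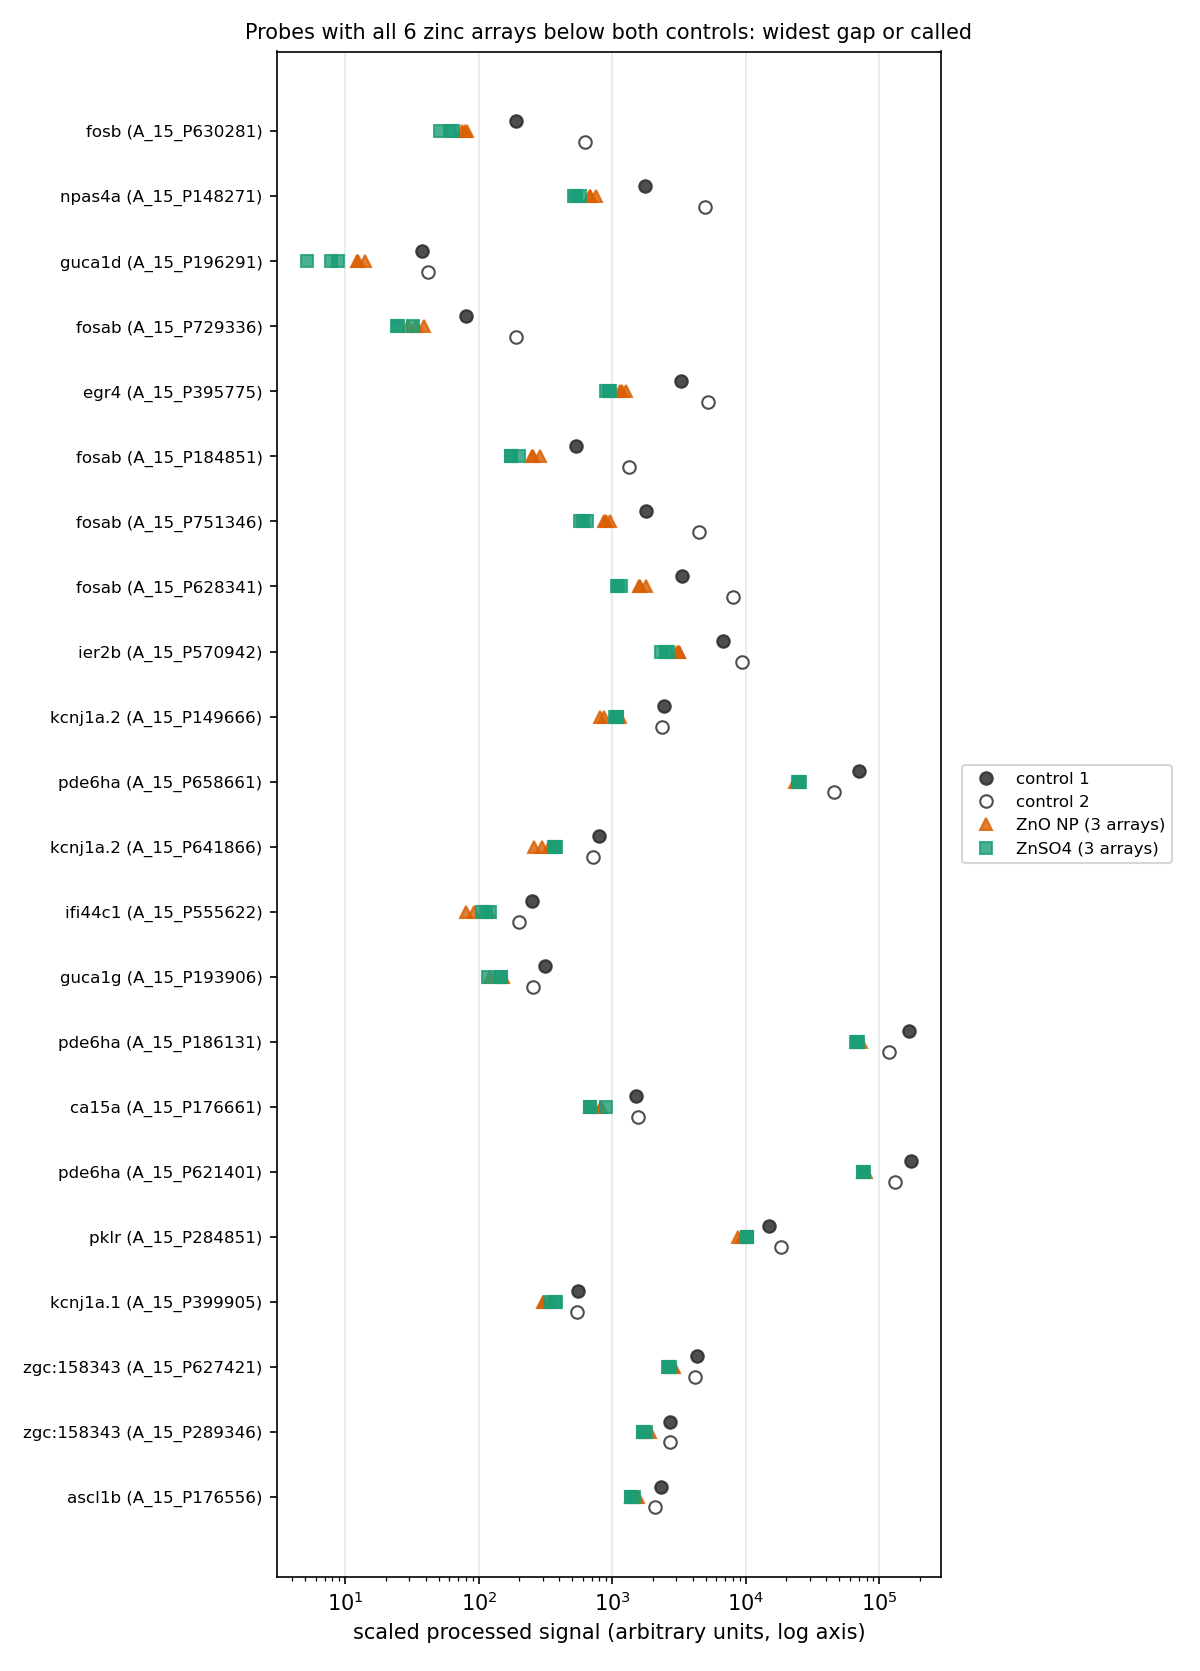
Scaled processed signal (arbitrary units, log axis) on each of the 8 arrays for the named probes that fell or had the widest downward gaps, with symbols as in the plot of upward probes. For egr4 the zinc arrays sit between 891 and 1265 and the controls at 3236 and 5164. For kcnj1a.1 the controls coincide at 552 and 547.

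Other lists held separated probes but no call. The hatching gland list, of secreted proteases that digest the egg envelope, had the lowest median (-1.27). Of its 12 probes 8 were separated downward (66.7%, against 0.696% of all probes). The astacin gene he1.2 read 8083 and 6705 in controls, 3059, 4119.9 and 2191 with ZnO NPs and 2222, 3737 and 2375 with ZnSO4 (A_15_P663821, -1.37 ± 0.27, adjusted p = 0.085). The he1.2 and he1.1 probes are near copies, and their zinc arrays rank ZnO NP 2 highest each time. All 4 probes of the cathepsin gene ctslb lay at -1.40 to -1.21 (adjusted p 0.0976 to 0.117). The list median was -1.44 against control 1 alone and -0.81 against control 2 alone.

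Of 30 tested probes for 11 glucocorticoid target genes, 6 were separated up and 0 down (20%, against 1.18% of all probes), 0 were called, and the median was 0.26. The receptor co-chaperone gene fkbp5 (A_15_P365290) read 939.7 and 971 in controls, 1948, 1548 and 2461 with ZnO NPs and 1744, 1983 and 1999 with ZnSO4 (1.01 ± 0.16, adjusted p = 0.0643). The transcription factor gene klf9 (A_15_P146191) read 387 and 395 in controls, 733, 645 and 925 with ZnO NPs and 691, 800.0 and 802 with ZnSO4 (0.96 ± 0.13, adjusted p = 0.0615). In both genes the controls were close and ZnO NP 3 was the highest array. Other members of the list did not share this: the 3 tsc22d3 probes lay at -0.04 to 0.10 and the 2 pck1 probes at 0.11.

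Calcium hormone genes had a median of 0.38 over 15 probes. Of these, 4 were separated up (26.7%, against 1.18% of all probes) and 1 down (6.67%, against 0.696%). Against control 1 alone the list median was 0.39 over 15 tested probes, and against control 2 alone it was 0.22 over 19. The tested probes differ because the filter on dim probes then used only the control that was left. The stanniocalcin gene stc1l, whose hormone lowers calcium uptake, read 124 and 833 in controls and 41.6 to 86.5 on the zinc arrays (-2.43 ± 0.62, adjusted p = 0.102), so its size rests mostly on control 2 (-1.06 against control 1 alone and -3.80 against control 2 alone). The vitamin D receptor gene vdra lay at 0.78 (adjusted p = 0.08) and the vitamin D hydroxylase gene cyp24a1 at 0.80 and 0.98 (adjusted p 0.136 and 0.13).

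Clock genes gave 7 of 51 probes separated down (13.7%, against 0.696% of all probes) and 3 up (5.88%, against 1.18%), with a median of -0.18. The period gene per3 (A_15_P103364) read 67.4 and 35.3 in controls and 9.43 to 26.4 with zinc (-1.61 ± 0.38, adjusted p = 0.0948), with 2 of 6 zinc arrays well above background, and its other probe, A_15_P628251, lay at -0.37 (adjusted p = 0.279) and was not separated. All 4 probes of the clock output factor tefa lay at -0.89 to -0.66, but control 1 read 11592 and control 2 read 5435 for A_15_P749236, which differed by -0.34 against control 2 alone. The melatonin synthesis gene aanat2 lay at 0.97 (adjusted p = 0.085). Against control 2 alone the median of the clock list was -0.05 (52 tested probes), and against control 1 alone it was -0.24 (53 tested probes).

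The stress lists held no call. Of 91 heat shock and endoplasmic reticulum stress probes 6 were separated down (6.59%, against 0.696% of all probes) and 0 up. These were the 3 probes each of hsp90aa1.1, a chaperone of muscle myosin (-0.76 to -0.70, adjusted p 0.085 to 0.0886), and serpinh1b, the collagen chaperone (-1.01 to -1.0, adjusted p 0.0976 to 0.107). For serpinh1b (A_15_P106877) control 1 read 7883 and control 2 read 3563, beside 2419 to 2979.5 with zinc. Against control 2 alone the median of this list was 0.01 (92 tested probes), and against control 1 alone it was -0.09 (91 tested probes). The heat shock gene hsp70.3 lay at 0.17 to 0.36 (adjusted p 0.55 to 0.79). Of 50 antioxidant probes 1 was separated up (hmox1b, 0.79), which is 2% against 1.18% of all probes, and 0 down. At any fold 12 of the 50 lay lower on all zinc arrays and 2 higher, against 13.1% and 13.6% of all probes. Of 35 DNA damage and apoptosis probes 0 were separated in either direction.

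Vitellogenin genes, for the yolk precursor proteins, supplied all 7 separated probes of the 48 in the yolk and lipid carrier list. All 7 were upward (14.6%, against 1.18% of all probes), and under normexp background correction 3 probes of the list were separated up. Of the list's 84 probes on the array 48 were tested. For vtg6, 7 of 13 probes on the array were tested and 3 were separated. These 3 were not well above background on all 8 arrays, so their separation depends in part on which dim probes were tested. For vtg7 (A_15_P725786) the controls read 50.7 and 44.3 and the zinc arrays 61.2 to 274 (1.87 ± 0.52, adjusted p = 0.11). ZnO NP 1 was the lowest zinc array for each named vitellogenin probe. The copies are near-identical and may share signal. Within side 1 the median of the list was -0.11, with 7 probes separated up and 5 down.

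No probe of the hypoxia list (17 probes, median 0.42), the cell cycle list (53 probes, -0.10), the contractile protein list (64 probes, -0.10) or the pancreatic enzyme list (30 probes, 0.02) was separated at the fold threshold. The pancreatic list depended on the control, with a median of 0.77 against control 1 alone (30 tested probes) and -0.71 against control 2 alone (31 tested probes). At smaller folds 13.6% of all tested probes lay higher on all zinc arrays and 13.1% lower. In the hypoxia list 10 of 17 lay higher, among them the prolyl hydroxylase gene egln3 (0.56, adjusted p = 0.0615). Its list median was 0.57 against control 1 alone (17 tested probes) and 0.33 against control 2 alone (18 tested probes). In the cell cycle list 18 of 53 lay lower, among them the replication clamp gene pcna (1338 and 1227 in controls against 960.5 to 1045 for A_15_P104409, -0.36, adjusted p = 0.082). The contractile list had 24 such probes of 64, with a median of 0.04 after quantile normalization, among them both probes of the cardiac gene myl7 (-0.33 and -0.29, adjusted p = 0.085).

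**Figure D3:**
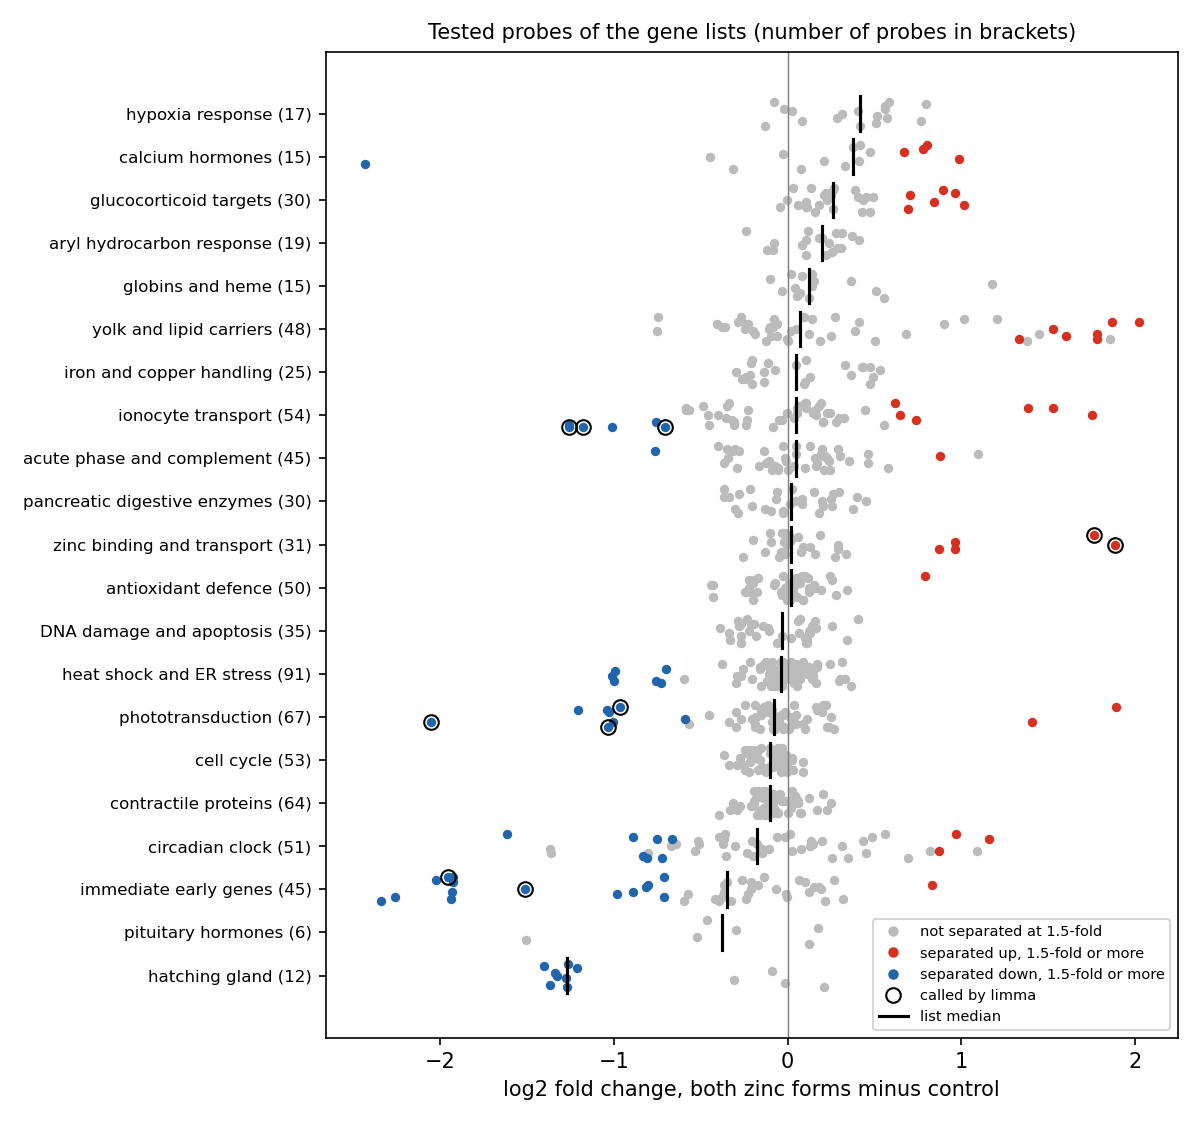
Log2 fold change (both zinc forms minus control) of each tested probe in the 21 gene lists, with the number of tested probes in brackets. Red and blue points are separated upward and downward at 1.5-fold or more, black rings mark calls and vertical bars the list medians, which run from -1.27 (hatching gland) to 0.42 (hypoxia response).

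The zinc forms were set against each other in the same model. No probe was called between ZnO NPs and ZnSO4 (limma, lowest adjusted p 0.792), and 1954 probes (5.64%) had an unadjusted p below 0.05. Among the 32 probes called against control, 12 had an unadjusted p below 0.05 between the forms and none an adjusted p below 0.811. Among the named calls well above background on all 8 arrays the widest such difference was that of zgc:110286 (A_15_P620394), which lay 0.66 higher with ZnO NPs (unadjusted p = 0.00448, adjusted p = 0.811). For slc30a8 (A_15_P402260) the change from control was 1.94 with ZnO NPs and 1.83 with ZnSO4, for arf4b 1.89 and 1.74, for egr4 -1.78 and -2.13, and for kcnj1a.2 (A_15_P149666) -1.36 and -1.16. These contrasts share the control arrays. Doses as mass of compound differed between the forms, and the contrast compares each at its LC25. Expressed as measured zinc, the paper reports similar LC25 values for both forms.

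For the 42 probes named by gap or call, the change was also computed against each control alone. The rhcga, npas4a, fosb and fosab probes differed most between the 2 controls, and 20 of the 42 probes had the larger change against control 2.

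**Figure D4:**
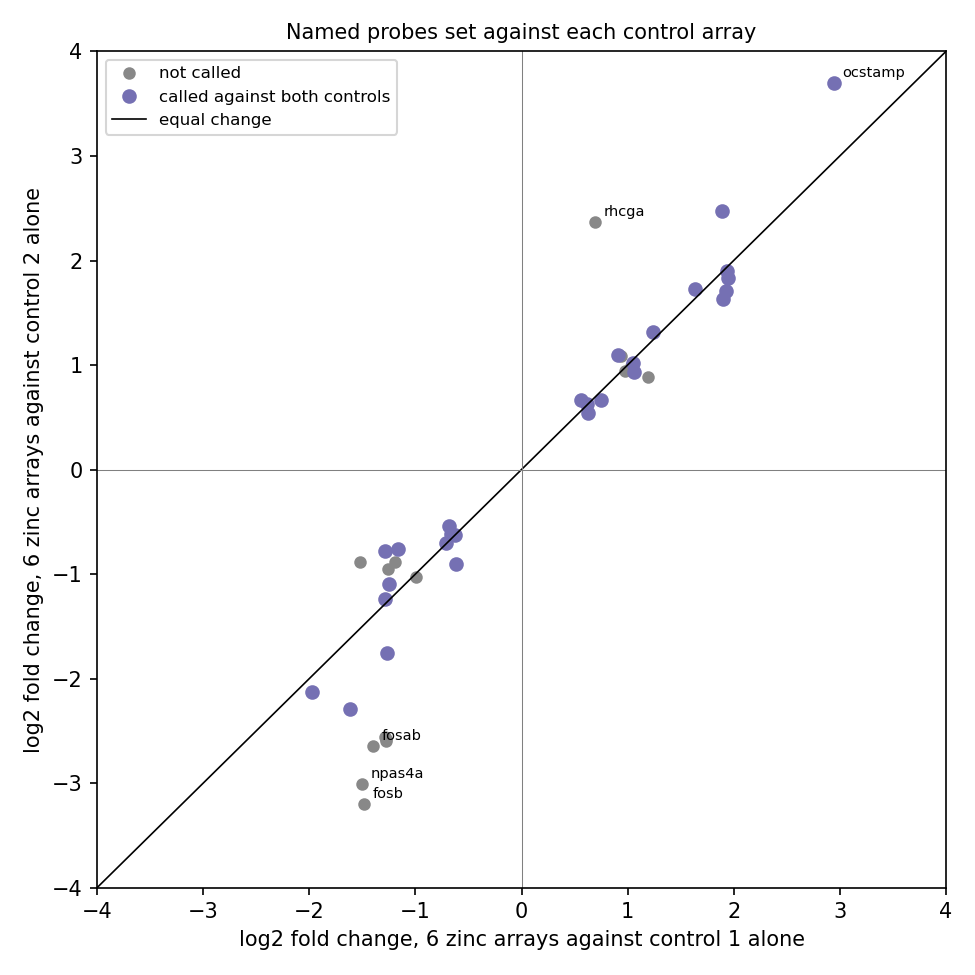
Log2 fold change of the 6 zinc arrays against control 1 alone (horizontal) and control 2 alone (vertical) for the 42 probes named by gap or call. The diagonal marks an equal change, and labels mark genes that lie more than 0.75 from it. Purple points were called in the pooled comparison with both controls, and ocstamp alone among them carries a label. The rhcga probe lies at 0.69 and 2.36 and npas4a at -1.50 and -3.01.

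Tissue markers showed the RNA to be that of whole larvae. The skeletal muscle, heart, red blood cell, liver, pancreas, gut, lens, photoreceptor, neuron and epidermis sets each had at least 2 genes well above background on all 8 arrays, and the oocyte set, which should be low at this stage, summed to 61.1 to 78.2. Of 18 marker sets, the ionocyte sum and the sums of 5 others did not overlap between the groups. For comparison, 13.6% of all tested probes lay higher on all 6 zinc arrays and 13.1% lower, at any fold. The heart sum was 6877 and 7253 in controls and 5962 to 6453 with zinc (median change per probe -0.28), and the skeletal muscle sum 1059798 and 1108119 against 937513 to 1026441 (-0.13). The liver sum was 292396 and 298401 against 176299 to 254676 and the neuron sum 52661 and 57227 against 46122 to 50879.8, while their medians per probe were 0.03 and 0.04, so a sum and its median can differ in sign. The endothelium sum was higher with zinc, at 847 to 943 against 699 and 846 (0.32). The lens sum was 135066 on control 1, 66228 on control 2 and 59086 to 78695 with zinc (-0.70). The part of these values in the changes above was not tested. The 16 beta-actin probes differed by -0.20 to -0.02, and 13 of them lay above 0 after quantile normalization.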

How the data were processed

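RNA of whole larvae was hybridised to 1-colour Agilent zebrafish arrays on 1 slide. Features were extracted with Agilent Feature Extraction 10.10 (10.10.1.1 per the file headers), whereas the paper's methods name another version of the program. The deposited signal intensities are its processed signals, background-subtracted by that program. The authors' processed value table was deposited on a log2 scale: 99.7% of its values lay within 0.01 of log2 signals shifted by each array's percentile and centred per probe, and it served as an alternative. The same program's flags marked outlier spots and spots well above background.

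Here the log2 of the processed signal was reduced by the 75th percentile of each array, spots marked as outliers were dropped and the replicate spots of each probe averaged, and 34620 probes entered limma 3.58.1 in R 4.3.3 (5 residual degrees of freedom). The signal was well above background for 77.5 to 85.8% of probes per array and 0 spots were saturated; the number of arrays limits the precision. With 6 arrays against 2, a permutation test of a single value cannot go below p = 0.0357 one-sided. The methods describe the zinc RNA samples as collected independently and the labels say less of the controls, so p-values measure only the spread between these samples. The procedure was tested on simulated data. Of the probes, 25854 took a symbol from RefSeq by accession and 416 from the study's probe names, of which 124 were updated (slc30a8 is LOC560642 there). RefSeq served for names and neighbours only, since its assembly is not that of the array's design.

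Named probes were the 15 in each direction with the widest gap among those well above background on all arrays, up to 15 called in each direction, those with the largest bound, up to 4 separated members of each of 21 lists, and mt2, actb1 and actb2. The members and lists were chosen with earlier results of these data known. A bound sets the dim group, on each array, to the higher of the lowest signal well above background and the probe's own. Alternatives covered scaling, background correction, filters, model, blocks and leaving out each array.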

Additional observations from a re-analysis of the deposited data

Results flagged for a closer look

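Among the 133 named probes, 6 had a zinc array far from the other 5, by the gap to its nearest neighbour as a share of the range over the 6 arrays (Dixon's ratio, critical value 0.625). Chance alone gives about 1 such probe in 20. The vtg6 probe A_15_P623606 was lowest on ZnO NP 1, at 14.6 against 40.5 on the next array (ratio 0.717). The matrix protease gene mmp9 (A_15_P114154) was highest on ZnO NP 3, at 2568 against 1395 (0.777). The secreted protease inhibitor gene serpina1 (A_15_P160926) was lowest on ZnO NP 1, at 61683 against 87473 (0.721). On ZnO NP 2 the lowest values were those of actb2 (A_15_P749822), at 67051 against 80009.5 (0.657), and of the heart gene myl7 (A_15_P171951), at 3964 against 4228 (0.858). The replication gene mcm5 (A_15_P705998) was lowest on ZnSO4 1, at 166 against 184 (0.67). None of these 6 probes was called between zinc and control.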

How the results depend on the processing

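The counts of called probes depended on most settings. Most named probes were chosen because their groups did not overlap, and leaving out 1 array cannot change the sign of such a probe. The count of kept signs is therefore largely set by this choice. Of 2777 comparisons (133 named probes under up to 21 alternatives), 2754 kept the sign and 2324 kept both sign and side of the threshold. The other 23 changed sign, all of beta-actin or mylpfa and none called. These lay above 0 after quantile normalization (actb1 0.0071, 0.0338, 0.0736, 0.0615, 0.0671 and 0.0749; actb2 0.0978, 0.046, 0.0593, 0.0326, 0.0395, 0.034 and 0.0317; mylpfa 0.00302) and with slide side as a block (actb1 0.00455). Leaving out 1 control gave, as the ends of each probe's range, -0.183 and 0.145, -0.195 and 0.0753, -0.185 and 0.0441, and -0.255 and 0.0938 for actb1, and -0.129 and 0.0557, -0.205 and 0.0309, and -0.225 and 0.00707 for actb2, the first of which was also above 0 without ZnO NP 2. Beside 18 probes up and 14 down, the count was 13 and 18 after quantile normalization, 15 and 43 after a median shift, 5 and 7 with normexp, 2 and 1 with no filter on dim probes, 38 and 34 for probes well above background on all 8 arrays, 40 and 36 with the zinc arrays as 1 group, 1 and 1 with an ordinary linear model, 148 and 95 with a trended robust prior, 0 and 2 with slide side as a block, 0 and 0 within side 1, 511 and 307 at an unadjusted p, 692 and 369 by fold alone, and 10 and 8 at a fold of 2. Beside 410 probes separated up and 241 down, the count was 215 and 355 after quantile normalization, 254 and 359 after a median shift, and 73 and 121 with normexp. It was 307 and 181 for probes well above background on all 8 arrays, and 1189 and 436 within side 1. Of the 32 calls, 25 were shared under quantile normalization, 27 under a median shift and 27 with the authors' table. Leaving out 1 array gave 2 to 1099 called up, 1 to 433 called down, 412 to 2212 separated up and 246 to 834 separated down, the upper ends without control 2 except the last, without control 1. Between groups, the deviations of same-numbered arrays correlated at -0.07 to 0.15 and those of differently numbered arrays at -0.19 to 0.12. Deviations are tied within a group (the 2 controls correlated at -1), so these values cannot decide whether equal numbers mark a shared batch. The replicate block gave 1 up and 1 down. The causes were not tested. Every comparison of zinc with control rests on 2 control arrays, both on 1 side of the slide. Probes near background gave smaller changes with normexp, a setting that added an offset of 50 to every signal and so compresses log2 changes of dim probes.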

Other observations

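Genes outside the lists were also described by genes with 2 or more tested probes, of which 6961 had a symbol, and these were chosen after their values were seen. In 15 genes all probes were separated upward and in 22 all downward. The cytochrome P450 gene cyp2k22 lay highest, with probes A_15_P659301 and A_15_P727801 at 2.72 ± 0.53 and 2.64 ± 0.70 (limma adjusted p 0.085 and 0.107). A_15_P659301 read 11.2 and 20.2 in controls, 85.5, 39.1 and 154 with ZnO NPs and 81.7, 114 and 196 with ZnSO4, and ZnO NP 2 was the zinc array nearest to the controls on both probes. The 3 probes of the fatty acid transport gene slc27a1b lay at 1.16 to 2.02 (adjusted p 0.0849 to 0.118), and the 4 probes of the fibronectin gene fn1b at 0.66 to 0.99 (0.0945 to 0.137). Both ch25h probes, for a cholesterol hydroxylase, lay at -1.34 and -1.25 (0.136 and 0.0889) on signals near background.

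Lens genes, also chosen after their values were seen, lay lower on the zinc arrays, with a large difference between the controls. Of 76 tested crystallin probes 9 were separated downward (11.8%, against 0.696% of all probes), of 6 genes. Upward 0 were separated and 0 were called (limma), with a median of -0.49. For cryaa (A_15_P107823), an alpha crystallin, the controls read 5050.0 and 2581 and the zinc arrays 1868 to 2359.6. The median log2 difference of control 1 over control 2 was 1.07 over these probes. Against control 1 alone the crystallin median was -1.09, and against control 2 alone it was 0.05, each over 78 tested probes. Of 14 probes for lens membrane proteins and grifin, 8 were separated downward (57.1%, against 0.696% of all probes), with a median of -0.69.

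The 8 tested probes of the insulin and IGF1 receptor genes, also chosen after their values were seen, had a median of 0.60. Of these, 4 were separated upward, beside 1.18% of all tested probes. They were 1 each for insra, insrb, igf1ra and igf1rb (0.68 to 0.92, limma adjusted p 0.0976 to 0.119). Control 1 was the lower control for each of these 4 probes, and the median log2 difference of control 1 over control 2 was -0.62 over all 8.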
